A study of Mus musculus with 2 samples.

Results

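The autosomal 10 kb windows in which DNA methylation was higher in XX than in XO mouse embryonic stem cells (mESCs) are described here. A window was a 10 kb step of a chromosome that held 5 or more rows of the deposited table, where 1 row is the cytosine of a CpG on 1 strand. Windows were selected on their measured values, because their mean over rows had to be at least 10 percentage points higher in XX than in XO cells, and 571 of 62196 windows (0.918%) met this rule. That share is also the background share of windows past 10 points, so nothing is read from the count itself. A second selection used the odd rows of each window, ordered by position, and left the even rows to be read. It picked 784 windows, and 296 of them were again at least 10 points higher on the even rows.

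The data were 2 reduced representation bisulphite sequencing (RRBS) libraries, 1 from XX and 1 from XO cells. Both came from a female Xmas mESC line of the C57/Bl6 strain, grown by the modified culture method, for 7 passages according to the labels and for longer according to the published methods, and separated by fluorescence-activated cell sorting (FACS). In this line the X chromosomes carry GFP and mCherry reporters driven from the Hprt promoter, so a cell that keeps both colours is sorted as XX and a cell that has lost one as XO. Each karyotype was thus 1 sorted population with no replicate, every value below is a description of 2 libraries without a test, and a library difference cannot be told apart from a karyotype difference. The table lists methylation percentages without read counts, so the depth behind each value is unknown. CpG methylation does not show whether a stem cell marker gene is expressed, so the labelled cell type was not checked.

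In mammals DNA methylation is placed mainly on the cytosine of CpG sites, where DNMT3 enzymes add it and DNMT1 copies it onto the new strand after replication. Female mESCs, with both X chromosomes active, are known for low methylation across the genome, and XO cells that have lost an X regain much of it. Against that background a window with more methylation in XX cells runs opposite to the genome. RRBS cuts DNA with MspI at CCGG and reads short fragments inward from the cut ends, so the cytosines of a fragment that are read on the same strand are often read on the same molecules.

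Windows that were higher in XX cells often rested on short sequences, and 7 of these are printed first as examples. All 7 come from the 15 windows of 10 or more rows with the largest rise, given below. They are thus stronger than a typical selected window. Each is the stretch (a run of rows with no gap over 100 bases) that holds most rows of its window, with up to 20 bases on either side, on the forward strand of GRCm38 (mm10) from the RefSeq reference. Capitals mark CpGs whose mean difference was at least 10 points higher in XX, and lower case CG is a CpG below that or without a row. The first 4 rose on both strands.
Rorb, chr19:19110172-19110328: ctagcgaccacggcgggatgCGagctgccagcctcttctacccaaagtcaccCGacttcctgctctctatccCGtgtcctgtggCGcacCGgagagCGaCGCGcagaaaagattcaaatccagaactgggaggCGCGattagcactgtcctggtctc
Zfp13, chr17:23592618-23592816: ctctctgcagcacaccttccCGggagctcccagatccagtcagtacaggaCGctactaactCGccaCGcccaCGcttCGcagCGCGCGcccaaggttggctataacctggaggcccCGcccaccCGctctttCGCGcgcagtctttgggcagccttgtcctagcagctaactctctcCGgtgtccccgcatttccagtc
Rangap1, chr15:81729443-81729627: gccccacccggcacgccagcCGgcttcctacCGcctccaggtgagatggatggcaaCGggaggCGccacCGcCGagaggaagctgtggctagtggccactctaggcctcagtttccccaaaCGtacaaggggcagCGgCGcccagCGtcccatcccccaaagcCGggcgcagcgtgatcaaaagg
Jph2, chr2:163375990-163376236: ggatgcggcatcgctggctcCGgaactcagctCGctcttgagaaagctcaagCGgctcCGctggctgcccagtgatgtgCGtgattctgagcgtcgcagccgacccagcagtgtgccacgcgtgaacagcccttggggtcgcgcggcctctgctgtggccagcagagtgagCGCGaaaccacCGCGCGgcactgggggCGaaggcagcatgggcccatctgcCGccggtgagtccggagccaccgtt

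The next 2 had rows on 1 strand only, the reverse strand at Tdg and the forward strand at Fnip1, and the capitals of Tdg lie toward the start of its stretch.
Tdg, chr10:82630030-82630210: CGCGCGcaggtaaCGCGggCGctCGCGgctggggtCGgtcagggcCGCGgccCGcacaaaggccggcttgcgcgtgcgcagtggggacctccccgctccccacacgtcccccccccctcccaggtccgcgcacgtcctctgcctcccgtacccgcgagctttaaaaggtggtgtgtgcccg
Fnip1, chr11:54438353-54438458: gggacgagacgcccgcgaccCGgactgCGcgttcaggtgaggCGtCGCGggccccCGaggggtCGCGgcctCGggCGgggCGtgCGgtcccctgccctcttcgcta

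In the last, which lies in no gene, the strands differed, with the rise on the forward strand.
No gene, chr12:119752540-119752735: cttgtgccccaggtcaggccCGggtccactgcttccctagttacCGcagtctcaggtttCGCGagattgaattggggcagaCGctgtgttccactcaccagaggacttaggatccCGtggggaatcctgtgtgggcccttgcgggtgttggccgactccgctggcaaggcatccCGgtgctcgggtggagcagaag

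The stretch of Rorb, which encodes a retinoid-related orphan nuclear receptor, held 11 rows on 10 CpGs, and all 11 were higher in XX. Its 6 forward rows all stood at 84.6% in XX against 27.3% to 54.5% in XO, and its 5 reverse rows at 30% to 60% in XX against 7.14% to 7.69% in XO. At the 1 CpG of this stretch listed on both strands, the forward cytosine read 84.6% in XX and 27.3% in XO and the reverse cytosine 45.0% and 7.14%, so both strands of that CpG were higher in XX. In the Zfp13 stretch, within an intron of a zinc finger gene, all 15 rows were higher in XX, with a mean of 31.9% against 4.42%. The 11 rows of the Rangap1 stretch, in an intron of the gene for the GTPase-activating protein of Ran, averaged 27.6% in XX against 1.58% in XO, and every reverse row was at 0% in XO. Junctophilin 2 (Jph2) joins the plasma membrane to the sarcoplasmic reticulum in heart muscle, and its stretch lay in a coding exon. There the 5 forward rows were all at 69.2% in XX and 6.67% in XO, while the 8 reverse rows averaged 23.6% and 0.893%.

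Tdg encodes thymine DNA glycosylase, which removes oxidised forms of methylcytosine from DNA. All 20 of its rows were reverse cytosines at the promoter, and 19 were higher in XX. The first 12 by position stood between 35.7% and 53.8% in XX and between 0% and 15.8% in XO, the next row at 21.4% and 15%, and the last 7, further along the stretch, at 5.56% or 0% in XX and at 0% in XO. The Fnip1 stretch, at the promoter of the folliculin-interacting protein 1 gene, had 13 forward rows at 15.6% to 40.6% in XX and 0% to 10.5% in XO. At the sequence in no gene on chromosome 12, the 5 forward rows averaged 88.2% in XX and 45.8% in XO, whereas the 5 reverse rows averaged 45.5% and 42.9%.

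**Figure D1:**
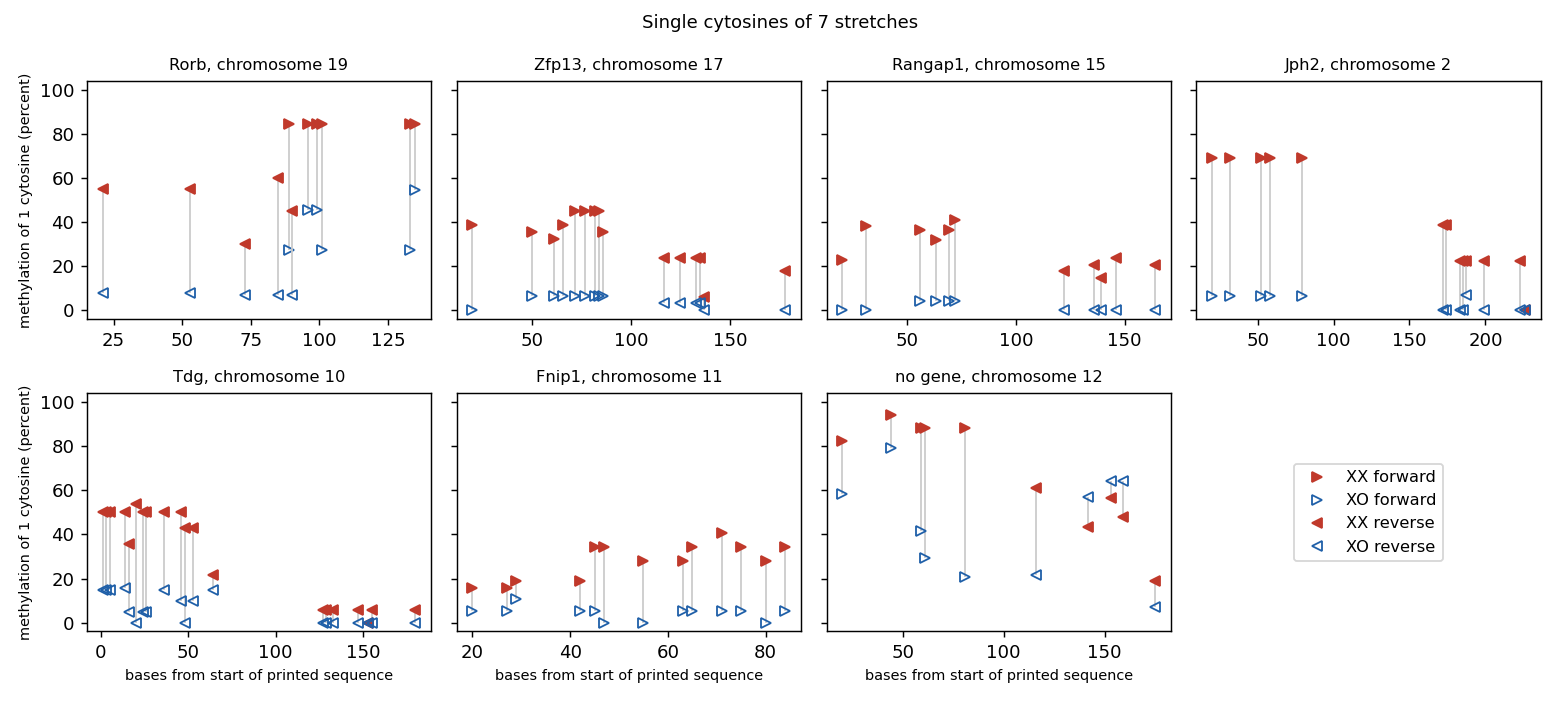
Methylation of single cytosines (percent, y axis) along the 7 printed sequences (bases from the start of the sequence, x axis) in XX cells (filled) and XO cells (open), with right-pointing triangles for the forward strand and left-pointing triangles for the reverse strand and grey lines joining the 2 libraries at 1 cytosine. Forward and reverse rows mostly occupy separate parts of a stretch, and at the sequence in no gene the 5 forward rows averaged 88.2% in XX and the 5 reverse rows 45.5%.

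The selected windows were of intermediate methylation in both libraries. Their XX mean had a median of 43.3% (quartiles 27.8% and 58.3%) and their XO mean a median of 26.3% (12.8% and 42.8%), where all windows had medians of 25.7% and 43.8%. The XX minus XO difference had a median of 13.9 points (11.5 and 18.5) in the selected windows and of -14.1 points over all windows, of which 37544 (60.4%) were at least 10 points lower in XX. Most rises were thus close to the limit, with 114 windows past 20 points and 20 past 30. In XO cells 108 selected windows (18.9%) were under 10% methylated and 45 were at 60% or more, and in XX cells 136 were at 60% or more. Every chromosome held some, from 14 on chromosome 19 to 52 on chromosome 2, or 0.642% (chromosome 17) to 1.21% (chromosome 6) of the chromosome's windows.

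The values at the limit itself were continuous. Just inside lay a window of Gm28635 (44 rows, 21.0% in XX and 10.9% in XO) and a window in no gene on chromosome 6 (12 rows, 44.3% and 34.3%), both 10.04 points higher in XX. Just outside lay windows of Rufy3 (7 rows, 9.99 points) and Snx29 (6 rows, 9.96 points). The largest rises of all were in windows with few rows. Klhl32 (chr4:24790000-24799999), a kelch family gene, was at 71.6% in XX and 13.8% in XO over 5 forward rows in a coding exon. Egr3 (chr14:70080000-70089999), an early growth response zinc finger factor, was at 75% and 22.2% over 6 reverse rows in a UTR, and AU041133 (chr10:82120000-82129999) at 80% and 29.2% over 5 reverse promoter rows. All rows of these 3 windows were higher in XX and all lay within 64 bases.

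The windows held fewer rows over a shorter span than the rest. The median number of rows was 7, against 11 over all windows, and the median distance from first to last row was 376 bases against 2592.5. In 198 of the 571 (34.7%) all rows lay in 1 stretch, against 20.1% of all windows, and in 97 (16.99%) all rows lay on 1 strand, against 3.38%. The 1-strand windows were divided between the forward (52) and reverse (45) strands, as were the 6532 rows (3293 forward, 3239 reverse). Of these rows 70.3% were higher in XX and 20.9% lower, where over all windows 27.1% were higher and 51.5% lower. The rule used these rows, so an excess of higher rows is built in. Since a mean over few rows varies more than a mean over many, the share of selected windows was read by number of rows. It was 1.69% among windows of 5 or 6 rows, 1.16% at 7 to 9 rows, 0.686% at 10 to 19, 0.691% at 20 to 49 and 0.111% at 50 or more. The last class was also the least methylated, with a median XO mean of 9.86% against 55.9% in the first.

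**Figure D2:**
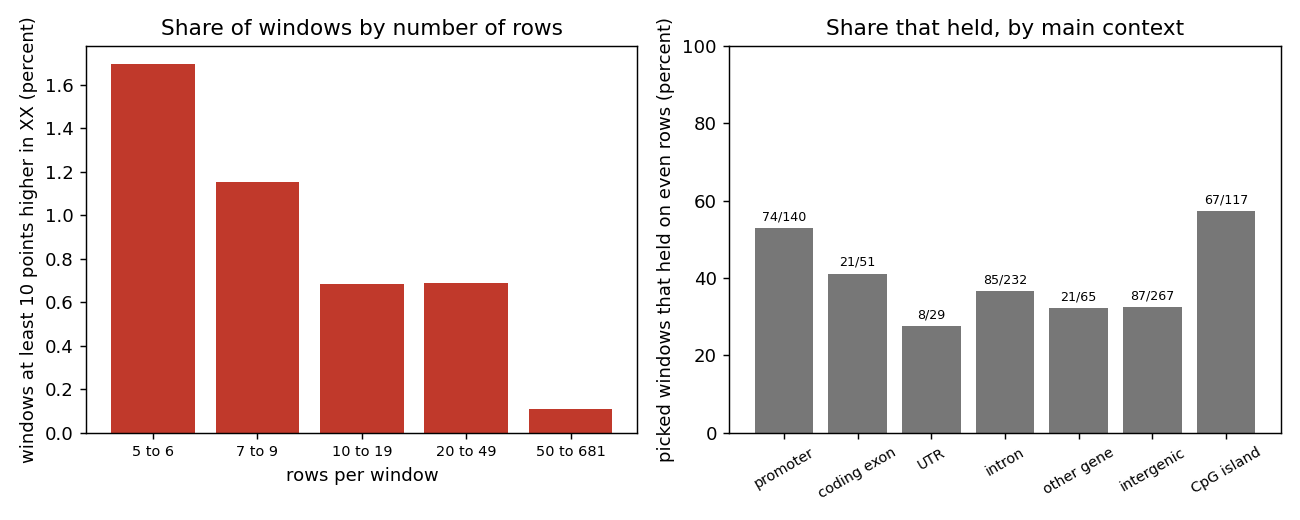
Left, share of windows at least 10 points higher in XX (percent) by the number of rows in the window. Right, share of windows picked on odd rows that were also at least 10 points higher on even rows (percent), by the place of most of their rows and for CpG islands, with counts above the bars. The left share fell from 1.69% at 5 or 6 rows to 0.111% at 50 or more, and on the right islands stood at 57.3% and intergenic windows at 32.6%.

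The odd and even rows were then compared, because the even rows had no part in the pick. The 784 windows picked on odd rows (1.26% of all) had a median difference of 14.1 points on these rows and of 6.44 points on their even rows. Of these, 296 (37.8%) were again at least 10 points higher in XX on the even rows, where 1.63% of all windows were. On the even rows 516 (65.8%) were above 0 against a background of 12.6%, and 268 were below 0, 105 of them by 10 points or more. The even rows of all windows had a median of -13.3 points, so the picked windows were on the whole shifted upward but by less than on the rows that picked them. Falls were read in the same way. Of 36553 windows picked for a fall of 10 points on odd rows, 82.9% fell by 10 points on even rows and 96.9% were below 0. Such falls were frequent from the start, since 60.4% of all windows showed one over all rows. No even-row background was taken for falls, so their share was not compared with that of rises. Odd and even rows come from the same libraries and often from the same reads, so a rise that holds is not a replicate.

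**Figure D3:**
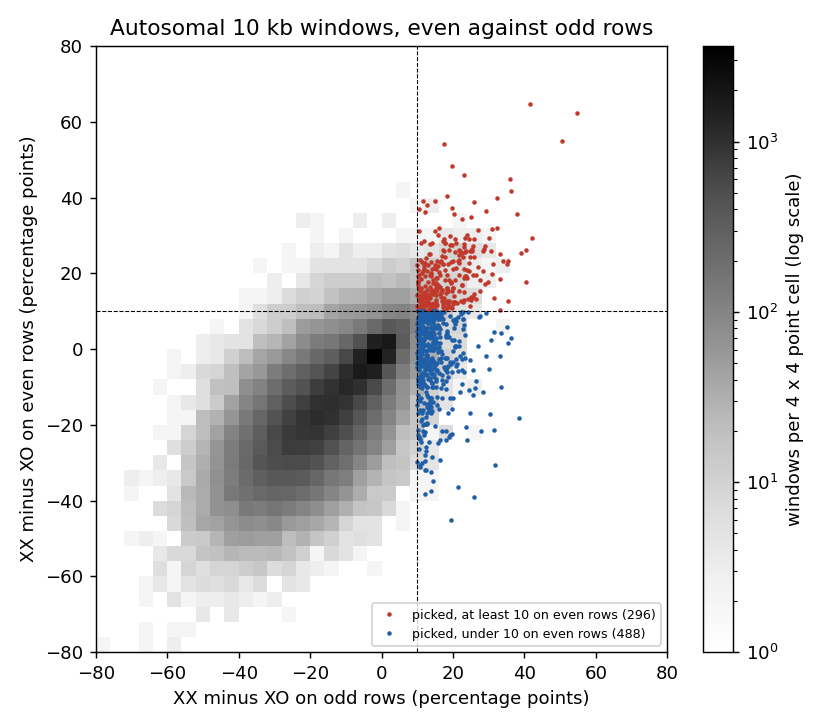
XX minus XO methylation (percentage points) of each autosomal 10 kb window on its even rows (y axis) against its odd rows (x axis), with grey cells shaded by the number of windows on a log scale, dashed lines at 10 points, and points for the 784 windows picked on odd rows. Red points (296) held on even rows and blue points (488) did not, and most windows lie in the lower left, below 0 on odd and even rows alike.

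All 296 windows that held were among the 571 of the rule on all rows. This could not come out otherwise, because the all-row difference is an average of the odd-row and even-row differences. Another 135 members passed 10 points on odd rows only and 140 on even rows only, and 537 were above 0 on odd and even rows alike. The share that held rose with the number of rows up to 49. It was 34.8% (111 of 319) at 5 or 6 rows, 35.6% (74 of 208) at 7 to 9, 40.6% (67 of 165) at 10 to 19 and 48.2% (40 of 83) at 20 to 49, and in that last class 90.4% of the picked windows were above 0 on their even rows. Of the 9 picked windows with 50 or more rows, 4 held and all 9 were above 0. The background fell over the same classes. Of all windows, 3.27% at 5 or 6 rows and 2.21% at 7 to 9 were at least 10 points higher on even rows. It was 1.19% at 10 to 19, 0.763% at 20 to 49 and 0.155% at 50 or more. The odd-row rise had a median of 17.1 points in windows that held and of 13.3 in the 488 that did not. Of the picked windows with 10 or more rows, 5 are named because their even rows were the lowest. Ctdspl, which encodes a phosphatase, differed by 11.2 points on odd rows and by -30.2 points on even rows. The even rows of Sgsm1 fell by 24.6 points, those of Gmpr by 23.5, those of Mdm4, an inhibitor of p53, by 23.2, and those of Ccdc6 by 21.5, after odd-row rises of 10.5 to 11.6 points. All 5 had 10 or 15 rows in 3 to 5 stretches.

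Among windows with 10 or more rows, the 15 with the largest rise held on odd and even rows alike were led by Tomm20l (chr12:71110000-71119999), a gene related to the mitochondrial import receptor Tomm20. Its 11 rows averaged 66.9% in XX and 28.2% in XO, with differences of 36.3 points on odd and 41.6 on even rows, and 10 of the rows were higher in XX. The rise was 45.2 points on its 9 reverse rows and 9.47 on its 2 forward rows. The whole Rorb window, with 4 rows outside the printed stretch, was at 64.7% and 35.6%. Those 4 rows were all lower in XX. Gja1 (chr10:56370000-56379999), which encodes the gap junction protein connexin 43, was at 47.4% and 15.1% over 12 rows, with 9 of them higher. Its rise lay on the 7 forward rows (64.0% and 7.27%), and its 5 reverse rows were at 24.2% in XX and 26.2% in XO. Fam167a (chr14:63430000-63439999) had 20 promoter rows in an island, all higher in XX, at 32.5% and 6.57%. Lbh (chr17:72920000-72929999), a transcription cofactor of limb and heart development, was at 69.1% and 43.4% over 11 rows in 4 stretches. Zfp868, another zinc finger gene, was at 43.6% and 20% over 10 forward rows.

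Myg1 (chr15:102330000-102339999), an exonuclease gene, had the most rows of these 15. Its 36 rows lay in 5 stretches, 33 of them within 1 kb of a start site, and averaged 41.4% in XX and 17.03% in XO, with 24 rows higher in XX. The 2 noncoding genes of the list were Gm14005 (70.2% and 45.8%) and Gm30928 (65.3% and 37.3%), with 10 rows each. The 2 reverse rows of Gm14005 were lower in XX, at 47.6% against 62.5% in XO. In 12 of the 15 windows the odd and even differences were within 10 points of each other, and the exceptions were Gja1 (39.1 and 25.5 points), Jph2 (33.9 and 23.4) and Gm30928 (20.3 and 35.7). The 15 were ranked by the smaller of the odd and even differences, so this closeness describes the windows chosen and is not a finding about them.

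**Figure D4:**
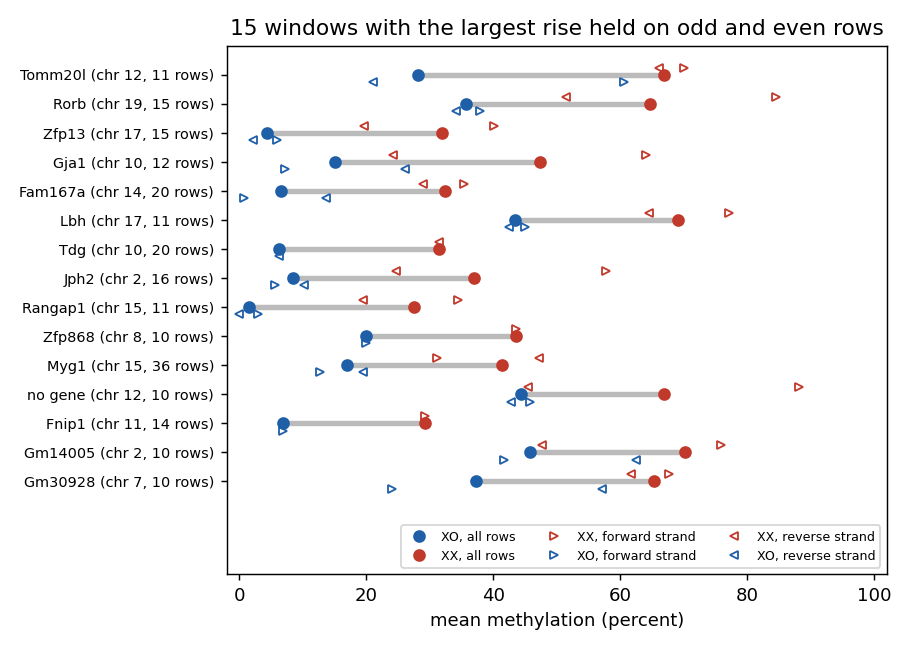
Mean methylation (percent, x axis) of the 15 windows of 10 or more rows with the largest rise held on odd and even rows alike, for XO (blue) and XX (red) cells over all rows (filled circles) and over the forward (right-pointing triangles) and reverse (left-pointing triangles) strands. Tdg, Zfp868 and Fnip1 have 1 strand only, and at Gja1 the XX strand means were 64.0% and 24.2%.

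The windows that held on the largest number of rows rose by less. Dot1l (chr10:80750000-80759999), a histone H3 methyltransferase, had 130 rows, 114 of them in a promoter island, at 23.6% in XX and 10.5% in XO, with 12.5 points on odd and 13.6 on even rows. Cdh11 (chr8:102780000-102789999), a cadherin of mesenchymal cells, had 86 rows at 18.8% and 7.202%. Tmem41b (chr7:109980000-109989999), an endoplasmic reticulum lipid scramblase, had 58 rows at 32.9% and 15.3%. Terb1 (chr8:104500000-104509999), which tethers telomeres to the nuclear envelope in meiosis, had 46 rows at 24.3% and 9.37%. The others named of these 10 windows were Herc3 (60 rows, 21.6% and 8.93%), Rundc3b (47 rows, 16.0% and 3.44%), the mitochondrial glutamate carrier Slc25a22 (44 rows, 47.1% and 35.1%), the elongation factor gene Supt5 (43 rows, 24.4% and 8.52%) and the PAR bZIP factor Tef (43 rows, 28.9% and 18.0%). Of the 9 named only Tef had no row within 1 kb of the outermost annotated start of a protein-coding gene, and all 9 had rows in CpG islands. Starts of other transcripts were not used, so an internal start at Tef was not looked for. In Dot1l 65 of the rows were higher in XX, in Cdh11 44 and in Herc3 30, so in each about as many rows were level or lower in XX.

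Strands differed within many of the windows. In the printed sequences forward and reverse rows were mostly different CpGs in separate parts of a stretch. A strand contrast can therefore also be one of position and of the molecules read, and these cannot be told apart. Of the 571, 397 had 2 or more rows on each strand, and both strands were at least 10 points higher in 86 (21.7%), where 0.151% of all windows were. The rule used the rows of both strands, so this contrast describes the members and is not a finding about them. The strands had opposite signs in 137 (34.5%), against 21.1% of all windows, 45.5% of those within 10 points and 4.60% of those at least 10 points lower in XX. Of the last, 71.6% were lower by 10 points on both strands. In Dot1l the forward strand was 20.9 points higher in XX and the reverse strand 5.0. In Rundc3b the forward strand differed by 0.161 points over 13 rows and the reverse strand by 17.3 over 34, and in Slc25a22 the values were -0.357 and 20.7. Terb1 (14.4 and 15.1 points) and Tef (10.4 and 11.4) had nearly equal strands.

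The widest strand differences among members with 3 or more rows on each strand were in windows with 6 to 12 rows. In a window in no gene on chromosome 11 the 6 forward rows went from 75.1% in XO to 44.7% in XX, a difference of -30.4 points, and the 6 reverse rows were 61.3 points higher. The axon guidance ligand Slit2 (-17.6 points forward and 49.8 reverse) and Rassf6 (-22.2 and 39.6) showed the same arrangement. Slc3a1, a subunit of an amino acid transporter, had the opposite one, with 36.5 points on the forward strand and -22.9 on the reverse strand. Members that were high on both strands were listed too, again on rows the rule used. Of 258 members with 3 or more rows on each strand, 51 (19.8%) were at least 10 points higher on both strands, where 0.107% of all windows were, and 72.2% of the windows lower by 10 points were lower by that much on both. The examples that follow were chosen after their values were seen. Mrpl28, a mitochondrial ribosome gene, rose by 20.8 and 20.6 points on 9 rows of either strand in its promoter island. Lrig1, a negative regulator of growth factor receptors, rose by 22.7 and 25.3 points on 3 rows each, and Smarcc2, a subunit of BAF chromatin remodelling complexes, by 16.2 and 27.4 points.

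The reading was repeated with the strands, and then with separate stretches, in place of odd and even rows. Among 57118 windows with 2 or more rows on each strand, 1221 were picked by a forward-strand rise of 10 points, and 86 of these (7.04%) held on the reverse strand, against 2.13% of all. Their reverse strand had a median of -10.2 points, near the -12.9 points of all windows. Among 49699 windows with more than 1 stretch, 1402 were picked on odd stretches and 74 (5.28%) held on even ones, against 4.46% of all, with a median of -10.4 points. Falls held in 75% and 67.1% of their picks, which were far more numerous at 32391 and 28925 windows. The 37.8% of rises that held on even rows was thus not found once the read rows lay on the other strand or in other stretches.

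How far a rise reached was measured at 4 distances, chosen after the values above were seen. On 1 strand of 1 stretch with 6 or more rows, 2723 of 58534 strands were picked on alternate rows, and 1925 (70.7%) held on the rows between, against a background of 4.86%. From the forward to the reverse strand of 1 stretch, 182 of 1793 (10.2%) held against 3.54%. From a stretch to the next in its window, 162 of 2810 (5.77%) held against 5.03%, and from a window to the next on the chromosome 3 of 237 (1.27%) held against 0.833%. Rises were therefore shared mainly by cytosines of 1 strand in 1 stretch, where strand, position and the molecules read could not be told apart. Beyond the stretch their frequency was close to the background. Falls held at 82.2%, 70.4%, 59.7% and 62.0% over the same 4 distances, but they were common to begin with. They were picked in 15597 of 58534, 21465 of 51792, 26697 of 55979 and 16105 of 28570 pairs. The reach of falls was therefore not compared with that of rises.

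**Figure D5:**
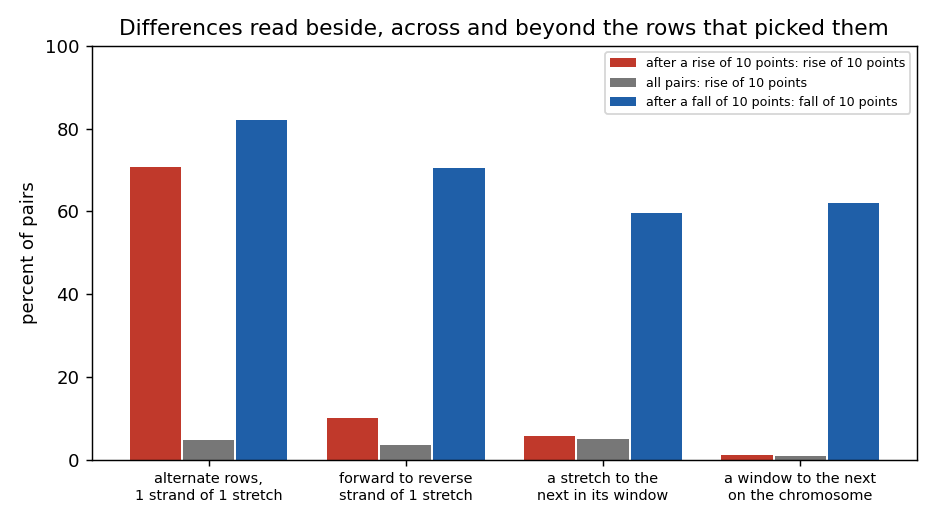
Share of pairs (percent) in which a rise of 10 points on the picking rows was followed by one of 10 points on the reading rows (red), the share of all pairs with such a rise on the reading rows (grey), and the share in which a fall was followed by a fall (blue), at 4 distances. The red bars go from 70.7% to 1.27%, and the blue bars lie between 59.7% and 82.2%. No background is drawn for falls, which were far more common than rises at every distance.

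Inside the members the stretches are described only, since the rule used their rows and a member needs a high stretch. Of 373 members with 2 or more stretches, 225 (60.3%) had exactly 1 stretch at least 10 points higher in XX and 47 (12.6%) had every stretch higher by that much. Over all windows with 2 or more stretches these shares were 19.08% and 0.0946%. Of 29426 windows at least 10 points lower in XX, 15.2% had exactly 1 stretch lower by 10 points. Every stretch was lower by that much in 41.2% of them. Falls were common to begin with, so their shares were not compared with those of the members. The 475 windows next to a member had a median difference of -10.6 points, 62 of them (13.1%) were above 0 against 10.2% of all windows, and 6 (1.26%) were themselves members, in 3 adjacent pairs. On the X chromosome, which took no part in the selection, 17 of 1349 windows (1.26%) were at least 10 points higher in XX. Of 19 X-linked windows picked on odd rows, 11 (57.9%) held on even rows. No even-row background was taken on the X chromosome, so this share was not compared with that of autosomes.

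Members were assigned to genes by the protein-coding gene, or failing that another gene, whose body or 1 kb upstream held most of their rows. A protein-coding gene was found for 335 members (329 genes), another gene for 57 and none for 179. Throughout, a start site is the outermost annotated start of a protein-coding gene, and starts of its other transcripts were not used. By GENCODE annotation most rows lay in a promoter (within 1 kb of a start site) in 114 members (19.97% against 18.3% of all windows), in an intron in 159 (27.8% against 30.8%), in a coding exon in 40 (7.01% against 9.46%), in a UTR in 18 (3.15% against 2.22%), in another gene in 47 (8.23% against 6.18%) and between genes in 193 (33.8% against 33.1%). The 5 protein-coding genes with more than 1 member were Ank2, Arhgap25, Parvb, Ralgapa2 and Gm20388, of which Gm20388 is a readthrough gene with 3. Ank2, a scaffold linking membrane proteins to spectrin, had 32 intronic rows at 15.9% in XX and 0.774% in XO in 1 window, and 6 rows at 40.5% and 28.1% in another. The forward strand carried the rise of the first window (23.1% against 0.433%), and its 11 reverse rows were at 2.04% and 1.43%.

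The share that held was higher in promoter and island windows. No even-row background was taken within these classes, which start from different levels. The median difference was -1.87 points in all island windows and -17.4 in the others. It was -2.21 points in promoter windows and -18.3 in intergenic ones. Of the windows picked on odd rows, 74 of 140 (52.9%) held in promoters, 21 of 51 (41.2%) in coding exons, 85 of 232 (36.6%) in introns and 87 of 267 (32.6%) between genes. Where most rows lay in a CpG island, 67 of 117 (57.3%) held, against 34.3% elsewhere, and the values were 64.7% and 34.1% in windows of 5 to 9 rows and 56.0% and 35.0% in windows of 10 or more. The share of windows selected by the rule was not higher in islands as a whole. Of all island windows 0.834% were members, against 0.938% of the others, but only 191 island windows had 5 to 9 rows, and 16 of those (8.38%) were members against 1.38% of other windows of that size. Island members had medians of 25.7% in XX and 9.75% in XO, and all island windows a median of 10.1% in XO. Among members with 10 or more rows the median distance to the nearest start site was 2700 bases, and 1011 bases for those that held, against 14379 for all windows of that size. With 5 to 9 rows it was 38052 bases in members against 49737, and over all members 22331 against 26474.5. The even-row methylation of XO cells, which the pick did not use, was read against the picks as well. The share picked was 1.45% where XO was under 10% on even rows, 1.82% at 10% to 20%, 1.65% at 20% to 40%, 0.993% at 40% to 60%, 0.891% at 60% to 80% and 0.819% above that.

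The median CpG density of the members was close to that of all windows. The GRCm38 sequence of a member held a median of 115 CpGs per 10 kb (quartiles 95 and 141) against 123 over all windows (96 and 156). Members made up 0.571% of windows under 50 CpGs, 0.953% at 50 to 99, 1.01% at 100 to 199 and 0.279% at 200 or more, and the densest class was also the least methylated, with a median XO mean of 11.6%. Windows with few rows are CpG-poor, so the values were also read by number of rows. With 5 to 9 rows members had a median of 108 CpGs against 101, and with 10 or more rows 135.5 against 143. The order of members and other windows thus depended on the number of rows. The GC content was 44.7% against 45.6%, and 26.8% of the bases of a member were repeat-masked against 24.9%. The share that held was 27.3% (3 of 11) of the windows picked under 50 CpGs and 29.6% (68 of 230) at 50 to 99. It was 41.2% (215 of 522) at 100 to 199 and 47.6% (10 of 21) at 200 or more. No even-row background was taken within these classes, and the share was not read by number of rows.

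Genes of 8 lists were looked up among the members, beside the 0.918% of all windows. Windows of the naive pluripotency (46), primed and early neural (35) and germ line (56) genes held 0 members. This holds only for the genes listed, which were 20, 17 and 27. The meiosis gene Terb1, a member given above, was not on the germ line list. The imprinted genes had 2 members in 125 windows. One was the Herc3 promoter given above, a ubiquitin ligase gene, and the other was Rasgrf1, a guanine nucleotide exchange factor, with 14 rows at 34.1% and 21.9%. Rasgrf1 passed 10 points on even rows only (7.48 points on odd and 16.9 on even rows). Tdg was the only member in 58 windows of the DNA methylation machinery, and among 149 trophoblast windows the members were the TEAD factor Tead4 (13 intronic rows, 18.6% and 6.55%) and the growth factor receptor Fgfr2 (5 rows, 39.1% and 27.3%). In 45 windows of MAPK feedback genes the members were Egr3 and Spred2, an inhibitor of Ras-ERK signalling (7 rows, 54.9% and 39.2%). Among 453 windows of homeobox, forkhead and related factors they were Prrx1, Foxp1 and Sox5. Prrx1, a homeobox factor, had 11 forward intronic rows at 94.2% and 77.6%, of which 9 lay in masked repeats. Sox5 had 5 forward rows at 52.2% and 24.0%, and Foxp1 6 rows at 29.4% and 13.1%, with 26.1 points on its forward strand and -3.46 on its 2 reverse rows. With 0 to 3 members a list, no share could be set apart from that of all windows.

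Promoters were also read by rows within 1 kb of a protein-coding start site. Of the 571 members 119 (20.8%) had 3 or more such rows, close to the 20.2% of all windows. Of 146 windows with such rows picked on odd rows, 78 (53.4%) held. Of the 10 with the largest rise on odd and even rows alike, AU041133, Tomm20l, Rorb, Gja1, Fam167a and Tdg were given above, and the others were Spef2, a sperm flagellum gene (7 rows, 44.8% in XX and 17.6% in XO), the Toll-like receptor Tlr6 (7 rows, 55.8% and 29.4%), Ifitm7 of the interferon-induced transmembrane family (6 rows, 58.8% and 31.9%) and the zinc finger gene Zfp983 (6 rows, 27.5% and 2.78%). Only AU041133, Tomm20l, Rorb, Fam167a and Tdg of these 10 had rows in a CpG island. The rise of Zfp983 lay on the reverse strand, at 38.5% in XX over 4 rows, and its 2 forward rows were at 5.63% in XX and 0% in XO.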

How the data were processed

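DNA of XX and XO Xmas mESCs, separated by FACS, was profiled by RRBS with 1 library per karyotype, prepared with a NuGEN Ovation Methylseq kit. The authors deposited the methylation percent of single CpG cytosines, 1 row per strand, on mm10. The submitters' processing notes name bcl2fastq and Bismark without versions, and the coverage minimum is not given in the sources used here. The deposited table held no read counts, so no interval or limit of detection could be given for a value.

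From the percentages, rows were assigned to 10 kb windows by start position and averaged without weights, and windows with 5 or more rows were kept. The 62 rows on chromosome Y were left out, and 0 columns of samples went unused. Rows were numbered by start within a window to form odd and even sets. Rows with gaps of at most 100 bases formed a stretch. Gene models came from GENCODE M21, sequence from RefSeq GRCm38.p6, and 16138 CpG islands were called over 200 bases with GC of at least 50% and an observed to expected ratio of at least 0.6, from runs scored at 17 per CpG. No comparison of karyotypes was tested, since each had 1 library.

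The members and gene lists were chosen with earlier results of these data known. The windows named were the 15 of 10 or more rows picked on odd rows with the largest rise, taken as the smaller of the odd-row and even-row differences, the 10 held windows with most rows, the 10 held windows with 3 or more promoter rows and the largest such rise, the 5 picked windows whose even rows fell most, the 2 windows on either side of the 10 point limit and the 5 members with the widest strand difference and 3 or more rows on each strand, besides members of the lists and those said to be chosen after their values were seen. Klhl32, Egr3, Ank2 and the other genes with more than 1 member were also chosen in that way. Windows of 2 genes that these rules select are not reported here. Alternatives changed the number of rows, the size of the rise, the rows picked and read, the window grid, the mean and the rows kept. The 4 distances over which a rise was followed were chosen after seeing the data. Scripts were tested on simulated data. Python 3.11.15, numpy 2.4.6, pandas 2.3.3, scipy 1.17.1 and matplotlib 3.10.9 were used.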

Additional observations from a re-analysis of the deposited data

How the results depend on the processing

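Of 70 values recomputed under 10 alternatives, 32 moved and 2 reversed. Of the other 36, 9 were counts within 1.5 times of those reported, 18 lay within the interval of the value reported and 9 could not change by construction. The share of picked windows that held was 37.8% (95% Wilson interval 34.4% to 41.2%) and the median even-row difference 6.44 points (5.14 to 7.56), where the intervals cover the number of windows only. The number of rising windows was 196 with 10 or more rows, 114 at a rise of 20 points and 1238 with medians over rows in place of means. The first 2 follow from their stricter rule, and the cause of the third was not tested. The share that held was 43.2% with 10 or more rows, 29.1% when even rows picked and odd rows were read, 43.6% with 1 value per CpG and 29.5% with medians. It was 7.04% from the forward to the reverse strand and 5.28% on separate stretches. Over the 4 distances added after seeing the data it was 70.7%, 10.2%, 5.77% and 1.27%. The median difference on the rows read was 8.66 points with 10 or more rows, 14.8 at 20 points, 3.43 with odd and even rows exchanged, 8.42 with 1 value per CpG, 7.57 without rows at 0 or 100 in both libraries and 1.28 with medians. It reversed to -10.2 points from strand to strand and -10.4 points between stretches, and the cause was not tested. Windows shifted by 5 kb and rows without masked repeats left all 3 results close to those reported. No paired analysis was possible because there is 1 library per karyotype, and for the same reason no replicate could be left out. Without read counts the depth of single windows could not limit or weight any value.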
